A study of Mus musculus with 120 samples.

Results

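Alzheimer risk loci are the genes nearest to, or held responsible for, variants that raise or lower the risk of Alzheimer disease in people. Of their mouse orthologues, 42 were followed here among 21631 coding genes. A called window was assigned to a gene when it overlapped the gene body or lay within 10 kb of it. Windows at gene ends, no more than 1 kb from an outer end of any coding gene body whatever starts lie inside it, were counted apart. By this rule 20 of the 8961 called windows belonged to risk genes, and 17 of the 42 genes had at least 1 in any comparison, against 26.7% of coding genes. All 42 genes were found in the annotation, with Ankh listed there under its older symbol Ank.

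DNA methylation was read by whole-genome bisulfite sequencing from App-NLGF and wild-type mice, in hippocampus and in blood, at postnatal weeks 3, 8 and 24. In App-NLGF mice the amyloid-beta part of the endogenous App gene is humanised, and the gene holds the Swedish, Iberian and Arctic mutations. The precursor protein thus stays under its own promoter in every cell. Each of the 12 groups of tissue, genotype and week had 10 libraries, 5 from males and 5 from females. The study compared the genotypes within each tissue and week with sex as a covariate, and the values are the 1 kb windows it called, with the difference in methylation (percentage points) and the adjusted p of each. The sign was taken as App-NLGF minus wild type from the name of the comparison, and every direction would turn if that order were the reverse. Methylation levels and coverage per library were not analysed here, so no spread between animals stands beside a difference, and the labelled tissues were not checked against marker genes. Both tissues are mixtures, in which a shift between cell types and a shift within a cell type cannot be told apart.

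Many of these genes act in microglia, the macrophages of the brain, and in the related myeloid cells of blood. There Trem2, Cd33, Inpp5d and Plcg2 belong to surface receptors and their signalling, and Spi1 encodes a transcription factor. Others carry membranes and their cargo into the cell (Bin1, Picalm, Cd2ap), serve the lysosome (Grn, Tmem106b), or act in neurons, among them Mapt, which encodes tau. In mammals methylation falls mostly on cytosines followed by guanine, the CpG sites. These sites are dense and mostly unmethylated at many gene starts.

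The promoter of Iqck is the only one of the 34 annotated promoters of risk genes that a called window overlapped. Of the 21045 promoters of coding genes, 7.53% were overlapped. The 34 promoters belong to 28 of the 42 genes. Bin1, Mapt, Ptk2b and Tpcn1, each with a window in blood at week 8, had no promoter record, so overlap there is unknown. The promoter of Iqck is shown beside those of Grn and Celf1, whose windows began just inside the gene, and of Trem2, whose window lay upstream. Each sequence runs from 250 bases before to 50 bases after the annotated start, with the CpG sites in capitals, and comes from RefSeq on GRCm38.p6 (Iqck chr7:118855502-118855801, Grn chr11:102430257-102430556, Celf1 chr2:90940147-90940446 and Trem2 chr17:48346151-48346450, all on the plus strand).
Iqck: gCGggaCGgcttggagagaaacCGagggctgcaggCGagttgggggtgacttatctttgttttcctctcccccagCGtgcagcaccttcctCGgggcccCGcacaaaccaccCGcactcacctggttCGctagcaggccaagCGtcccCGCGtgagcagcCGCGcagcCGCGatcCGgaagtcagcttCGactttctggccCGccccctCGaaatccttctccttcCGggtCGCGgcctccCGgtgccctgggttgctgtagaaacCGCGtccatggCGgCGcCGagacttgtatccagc
Grn: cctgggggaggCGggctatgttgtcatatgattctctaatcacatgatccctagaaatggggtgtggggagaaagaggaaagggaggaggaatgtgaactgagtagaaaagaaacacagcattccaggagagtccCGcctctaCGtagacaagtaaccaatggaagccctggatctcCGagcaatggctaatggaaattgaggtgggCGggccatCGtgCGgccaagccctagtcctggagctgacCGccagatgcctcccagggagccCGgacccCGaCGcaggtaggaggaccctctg
Celf1: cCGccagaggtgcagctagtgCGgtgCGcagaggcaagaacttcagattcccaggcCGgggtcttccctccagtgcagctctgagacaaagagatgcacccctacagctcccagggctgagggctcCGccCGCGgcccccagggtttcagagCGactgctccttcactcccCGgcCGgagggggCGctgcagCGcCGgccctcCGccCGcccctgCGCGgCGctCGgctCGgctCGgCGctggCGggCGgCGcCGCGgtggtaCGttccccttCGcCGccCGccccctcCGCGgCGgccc
Trem2: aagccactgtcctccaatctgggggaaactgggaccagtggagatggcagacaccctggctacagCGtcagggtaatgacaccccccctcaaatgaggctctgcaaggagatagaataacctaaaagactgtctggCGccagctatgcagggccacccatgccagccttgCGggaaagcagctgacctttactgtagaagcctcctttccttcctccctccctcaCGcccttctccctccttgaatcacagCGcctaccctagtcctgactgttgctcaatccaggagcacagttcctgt

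The Iqck promoter holds 29 CpG sites in 300 bases, the Celf1 promoter 34, the Grn promoter 11 and the Trem2 promoter 5. Of all 21045 promoters of coding genes, 17.3% hold at least as many CpG sites as that of Iqck, 10.3% as many as that of Celf1, 55.3% as many as that of Grn and 72.3% as many as that of Trem2. These promoters therefore span CpG-rich and CpG-poor starts.

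Most windows at risk genes came from blood, and blood at week 8 alone gave 4526 of the 8961 called windows. At week 8 in blood, 13 of the 42 genes (31.0%) had a called window, against 19.5% of coding genes, and all 13 windows were lower in App-NLGF, in a list where 88.9% of windows were lower. Of coding genes 18.8% had a lower window there. At week 24 in blood, 4 genes (9.52%) had a window, against 1.25% of coding genes, and all 4 windows were higher, in a list where 17.5% were lower. Of coding genes 1.04% had a higher window in blood at week 24. At week 3 in blood, a single gene, Inpp5d, had a window, against 2.79% of coding genes. Hippocampus gave 0 of 42 genes at week 3, against 2.60% of coding genes, 1 at week 8 (Mapt), against 1.74%, and 1 at week 24 (Wwox), against 2.43%. A single gene of 42 is 2.38%, so hippocampus and blood at week 3 gave counts near the background, and the nearest hippocampal window at week 3 lay 31.4 kb from Scimp.

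**Figure D1:**
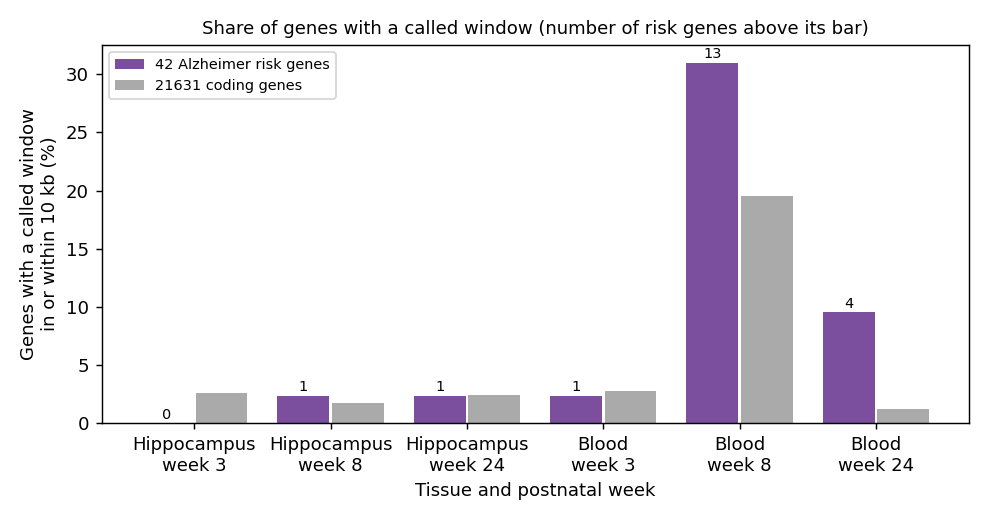
Percentage of genes with a called window in or within 10 kb of the gene body (vertical axis) for each tissue and postnatal week (horizontal axis), for the 42 risk genes (purple) and all 21631 coding genes (grey), with the number of risk genes above each purple bar. Blood at week 8 has 13 risk genes and blood at week 24 has 4, and the other comparisons have 0 or 1.

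Risk genes are longer than most, with a median of 41.8 kb against 17.3 kb for coding genes, and longer genes hold more windows. Of the 13 risk genes over 100 kb, 3 had a window in blood at week 8, against 30.5% of the 2427 coding genes of that length, and 3 had one in blood at week 24, against 5.27%. Of the 7 risk genes between 50 and 100 kb, 5 had a window in blood at week 8, against 502 of 2514 coding genes of that length, and of the 17 between 10 and 50 kb, 2 had one, against 19.2%. Among the 5 risk genes under 10 kb, 3 had a window in blood at week 8 (Grn, Trem2 and Cox7c), against 16.2%. The median distance from a risk gene to the nearest window in blood at week 8 was 47.9 kb, against 110.3 kb for coding genes. There 22 of the 42 lay within 50 kb, against 35.2% of coding genes. In blood the medians were 775.3 kb at week 3 and 1654.3 kb at week 24, against 825.1 and 1785.4 kb for coding genes. For hippocampus at weeks 3, 8 and 24 they were 852.4, 1099.8 and 576.4 kb, against 857.5, 1259.8 and 955.1 kb.

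**Figure D2:**
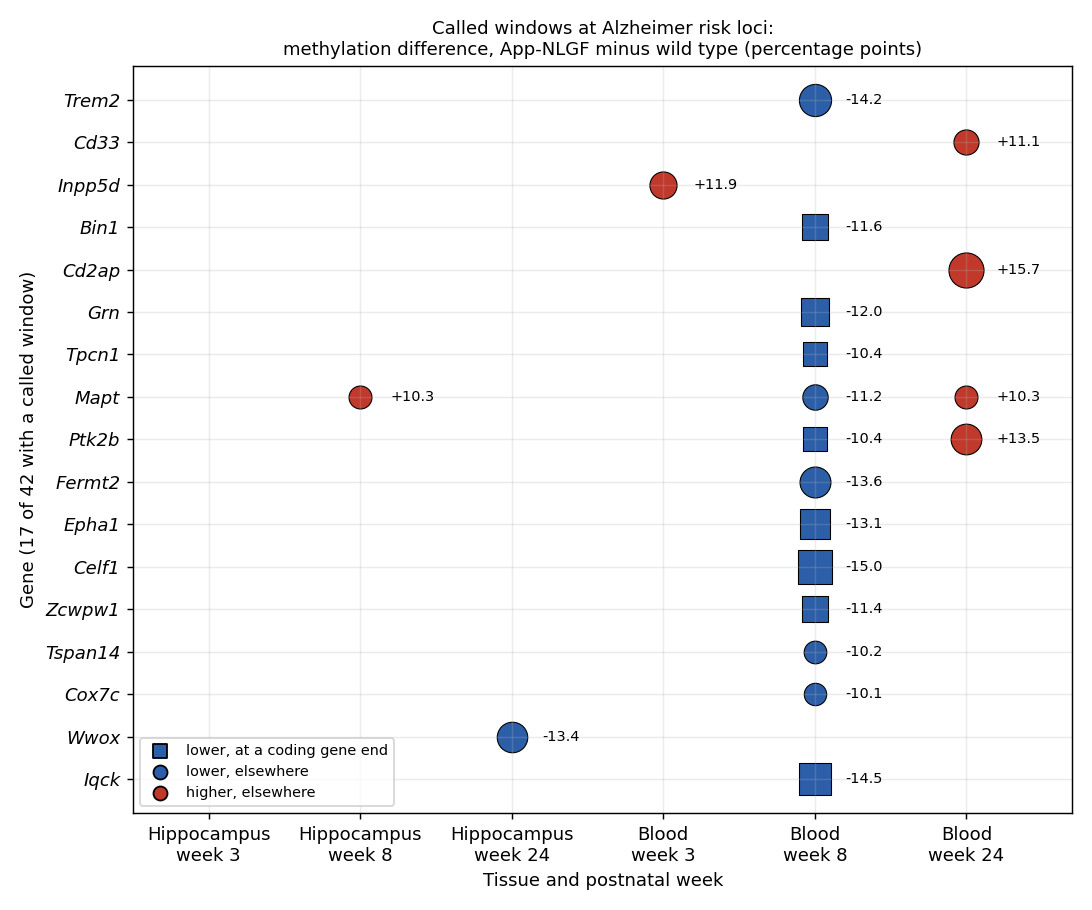
Methylation difference of every called window at a risk gene, App-NLGF minus wild type in percentage points (printed beside each symbol, symbol area growing with its size), by gene (vertical axis, ordered by role) and by tissue and postnatal week (horizontal axis). Blue symbols are lower and red symbols higher, and squares mark windows at coding gene ends. The column of blood at week 8 holds 13 lower windows, 8 of them squares, and that of blood at week 24 holds 4 higher ones.

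By role the risk genes fall into groups of 3 to 11, whose counts below run over all 6 comparisons and stand against the 26.7% of coding genes with a window in any of them, or 51.3% of those over 100 kb. Of the 11 genes grouped as microglial receptors and their signalling, with the transcription factor gene Spi1 among them, 3 had a window. Each of these windows was in another comparison and outside the gene body. Trem2, a lipid-sensing receptor of microglia, had a lower window 3.40 kb upstream of its start in blood at week 8 (chr17:48342001-48343000), which the authors' deposited table gives at -14.2 points (adjusted p = 0.0546). Cd33, an inhibitory receptor for sialic acids, had a higher window in blood at week 24, at 11.1 points (adjusted p = 0.0774) in the authors' deposited table. That window lay 9.58 kb from the gene body, close to the limit of the rule. For Inpp5d, which encodes the lipid phosphatase SHIP1, the authors' deposited table lists 11.9 points in blood at week 3 (adjusted p = 0.00536), 7.31 kb upstream of the start. No window was assigned to the 8 others, Treml2, Plcg2, Abi3, Spi1, Ms4a6d, Scimp, Clnk and Cr1l. Treml2, a neighbour of Trem2, lay 29.5 kb from its nearest window in blood at week 8, and Spi1 lay 140.4 kb from its own.

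Among 6 genes of endocytosis and membrane traffic, Bin1 and Cd2ap had a window. Bin1 encodes a protein that bends membranes, and its window in blood at week 8 (chr18:32377001-32378000) lay inside the gene, 0.383 kb from its low-coordinate end, where the noncoding gene A830052D11Rik also lies. The authors' deposited table gives -11.6 points there, with an adjusted p of 0.0175. Cd2ap, an adaptor between receptors and the actin skeleton, had the largest difference of the 20 windows, at 15.7 points in blood at week 24 (adjusted p = 0.0289) in the authors' deposited table. It lay 6.29 kb upstream of the gene body, and 195 of the 567 windows of that list were larger in size. Picalm, Rin3, Acap1 and Usp6nl had no window.

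Of the 5 genes of the lysosome and lipid handling, Grn and Tpcn1 had a window, both in blood at week 8 and both at a gene end. Grn encodes progranulin, a secreted protein that is delivered to lysosomes and whose loss causes frontotemporal dementia in people. Its window (chr11:102431001-102432000) lay within the gene and began 0.494 kb after the start, so the promoter printed above lies outside it. The authors' deposited table lists -12.0 points for it, with an adjusted p of 0.0652. Another coding gene, Fam171a2, also lay within 10 kb of this window. At Tpcn1, a cation channel of endosomes and lysosomes, the window (chr5:120588001-120589000) spanned the high-coordinate end of the gene and overlapped its neighbour Iqcd. Its difference was -10.4 points (adjusted p = 0.000470) in the authors' deposited table. Abca7, Tmem106b and Sppl2a had no window.

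The group of tau, kinase, adhesion and cytoskeleton genes had a window at 4 of 5 members, of which Mapt and Ptk2b are over 100 kb long, and these were the only risk genes with windows in more than 1 comparison. Mapt had 3 windows at 3 places in its 102.7 kb body. In hippocampus at week 8 a window 2.09 kb from its high-coordinate end (chr11:104329001-104330000) stood at 10.3 points (adjusted p = 0.0159) in the authors' deposited table. That window overlapped Mapt but also lay within 10 kb of the coding gene Kansl1, so the rule assigns it to both. In blood at week 8 a window 2.59 kb from its low-coordinate end (chr11:104232001-104233000) was lower, at -11.2 points (adjusted p = 0.00533), and in blood at week 24 one 37.6 kb inside the gene (chr11:104267001-104268000) was higher, at 10.3 points (adjusted p = 0.00906), in the authors' deposited table. The 3 windows of Mapt thus have different positions and both signs, and give no direction for the gene as a whole.

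Ptk2b encodes Pyk2, a calcium-responsive tyrosine kinase of neurons and immune cells. In blood at week 8 its window (chr14:66280001-66281000) lay 0.1 kb from the high-coordinate end of the gene, and its difference was -10.4 points (adjusted p = 0.000244) in the authors' deposited table. Another window of Ptk2b, 20.1 kb inside the gene, was higher in blood at week 24, at 13.5 points (adjusted p = 0.0889) in the authors' deposited table. Fermt2, which encodes a kindlin that activates integrins, had a lower window inside the gene, 22.1 kb past its annotated start, in blood at week 8, at -13.6 points (adjusted p = 0.00432) in the authors' deposited table. For Epha1, an ephrin receptor gene, the authors' deposited table lists -13.1 points in blood at week 8 (adjusted p = 0.00455), 7.49 kb past the end of the gene. That window overlapped an end of the neighbouring Zyx, a focal adhesion gene, and so was assigned to Epha1 by distance alone. Cass4 had no window.

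Of the 3 genes of transcription, chromatin and RNA, Celf1 and Zcwpw1 had a lower window in blood at week 8, and Mef2c had none. Celf1, a regulator of splicing and RNA decay, had the largest lower difference of the 20 windows, at -15.0 points (adjusted p = 0.00254) in the authors' deposited table. Its window (chr2:90941001-90942000) began 0.604 kb after the annotated start, past the CpG-rich promoter shown. Celf1 and Spi1 lie on the same stretch of chromosome 2, and the window of Celf1 is the one nearest to Spi1 in this list. The window of Zcwpw1, a reader of histone methylation in meiosis, was 7.16 kb upstream of the gene, at -11.4 points (adjusted p = 0.0116) in the authors' deposited table. It overlapped an end of another gene, Ppp1r35, and was assigned to Zcwpw1 by distance alone, as it also was to Mepce.

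Tspan14, a tetraspanin that guides the protease Adam10, was the one gene of 3 App adaptors and proteases with a window, 17.6 kb from the end of the gene and inside it. The authors' deposited table gives -10.2 points there in blood at week 8, with an adjusted p of 0.000778. Apba3, an adaptor that binds App, and the protease gene Adamts4 had none.

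Among the 9 remaining genes, Iqck, Cox7c and Wwox had a window. Iqck, named for its calmodulin-binding IQ motif, had the smallest adjusted p of the 20 windows, 1.23e-08, with -14.5 points in blood at week 8 in the authors' deposited table. The window (chr7:118855001-118856000) holds the whole promoter printed above and its 29 CpG sites. It also overlaps an end of the neighbouring Knop1, so the rule assigns it to both genes. By adjusted p it stood at rank 28 of 4526 windows and by size at rank 697. Cox7c, a subunit of cytochrome c oxidase, had a window 1.80 kb past its end, at -10.1 points in blood at week 8 (adjusted p = 0.0259) in the authors' deposited table. Wwox, an oxidoreductase gene of 913.1 kb, had the one window of the risk genes in hippocampus at week 24, 446.7 kb inside the gene, at -13.4 points (adjusted p = 0.0653) in the authors' deposited table. Hbegf, Sharpin, Nme8, Slc24a4, Ankh and Echdc3 had no window.

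**Figure D3:**
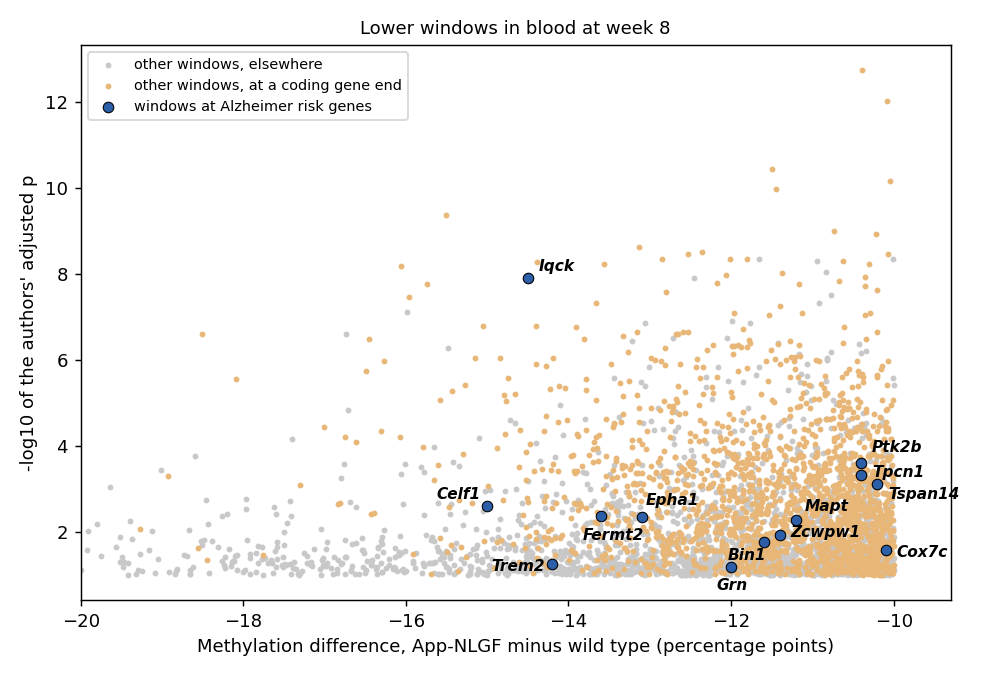
Each point is a lower window in blood at week 8, by its methylation difference, App-NLGF minus wild type, in percentage points (horizontal axis) and by the negative log10 of the authors' adjusted p (vertical axis), with 3914 of 4526 windows in the range drawn. Blue points are the 13 windows at risk genes and orange points the other windows at coding gene ends. Of the 13, Iqck has the smallest adjusted p (1.23e-08) and Celf1 the largest difference (-15.0 points).

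The 13 windows of blood at week 8 ranged from 10.1 to 15.0 points in size with a median of 11.6, against a median of 11.7 points over all 4526 windows of that list. The 4 windows of blood at week 24 had a median of 12.3 points, against 14.0 over the 567 windows there. The medians at risk genes were thus at or below those of the lists. Of the 20 positions, 0 were called in a second comparison, and of all 8942 positions 18 were. Of the 13 windows in blood at week 8, 8 had an adjusted p under 0.01 and 0 reached 15 points, with Celf1 closest at -14.98 in the authors' deposited table. In the whole list, 587 of the 4526 windows were larger in size than that of Celf1. The limit of 0.01 fell between rank 1553 (Mapt) and rank 1937 (Zcwpw1) of the 4526 windows by adjusted p. Of the 4 in blood at week 24, 2 lay inside a gene body, 1 had an adjusted p under 0.01 (Mapt) and 1 reached 15 points (Cd2ap). In that list of 567, the window of Mapt stood at rank 28 by adjusted p, and 195 windows were larger than that of Cd2ap.

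Gene ends held 8 of the 13 windows in blood at week 8, in a list where 41.9% of windows did. Bin1, Celf1, Grn, Iqck, Ptk2b and Tpcn1 had the window at their own end, which is 6 of 42 genes, and 9.96% of coding genes had a lower window at their own end (2154 of 21631, or 2166 with windows of either sign). The other 2, at Epha1 and Zcwpw1, lay at the ends of neighbours. With windows at coding gene ends set apart, 5 of the 42 genes kept a window (Cox7c, Fermt2, Mapt, Trem2 and Tspan14), against 6.66% of coding genes. In the other 5 comparisons 0 of the 7 windows at risk genes lay at a gene end, in lists where 3.53% to 6.25% of windows did.

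**Figure D4:**
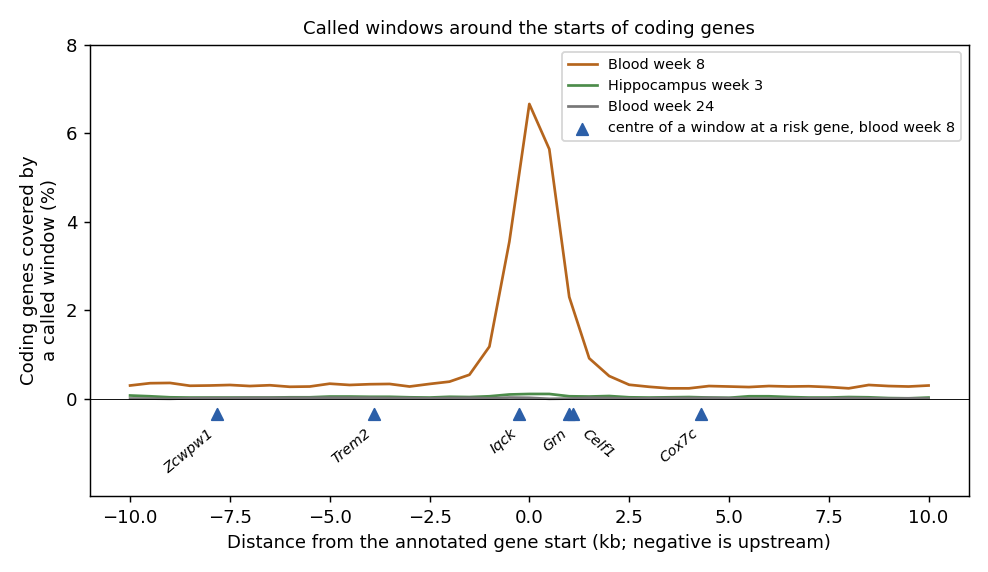
Percentage of 17274 coding genes covered by a called window (vertical axis) at each distance from the annotated start in kb (horizontal axis, negative is upstream), in blood at week 8, hippocampus at week 3 and blood at week 24. Triangles mark the centres of windows at risk genes in blood at week 8. Coverage in blood at week 8 is 6.66% at the start and 0.301% at 10 kb on either side, and the centres for Iqck, Grn and Celf1 lie within 1.10 kb of the start.

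Among coding genes with an annotated start, 6.66% had the start itself covered by a window in blood at week 8, and 0.301% were covered 10 kb away. Of the 9 risk genes with both a window and an annotated start, 3 had the centre of the window close to it, at -0.252 kb for Iqck, 0.994 kb for Grn and 1.10 kb for Celf1. The windows of Trem2 (-3.90 kb), Cox7c (4.29 kb) and Zcwpw1 (-7.83 kb) were centred in the range where coverage was at its level far from starts, and those of Fermt2, Epha1 and Tspan14 were over 20 kb away.

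CpG density of the promoters overlapped between risk genes with and without a window. The 11 promoters of risk genes with a window in blood at week 8 held 3 to 37 CpG sites (median 17), and the 23 promoters of those without held 1 to 53 (median 12). Over all coding genes the 1527 promoters that overlapped a window in blood at week 8 had a median of 22 CpG sites, against 12 for the 19518 that did not. A window overlapped 0.464% of promoters with 0 to 5 CpG sites, 6.22% of those with 6 to 15, 14.8% of those with 16 to 25 and 10.3% of those with 26 or more, so the share was highest in the third of these groups and not in the densest. Of the risk genes' promoters, 14 held 16 sites or more and 1 of these, that of Iqck, overlapped a window, against 12.5% of all promoters with 16 sites or more. Among the 9 with 26 sites or more the count was also 1, against the 10.3% above. Risk genes without a promoter record, among them Bin1, Ptk2b and Tpcn1 with windows at their own ends, are not in these counts.

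**Figure D5:**
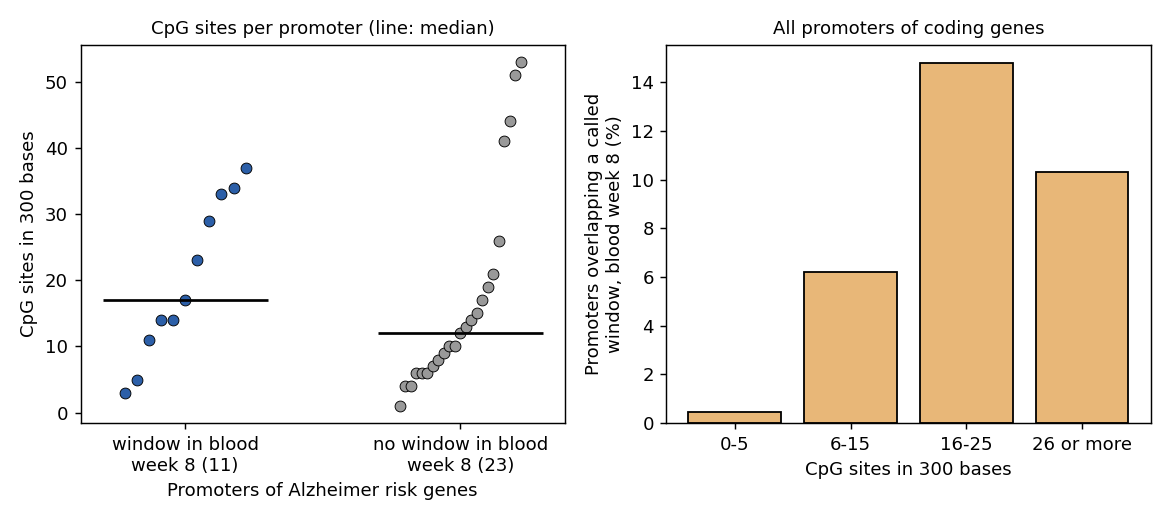
Left, CpG sites in the 300 bases of each risk gene promoter (vertical axis), for genes with a window in blood at week 8 and for those without, with the line at the median (17 and 12). Right, percentage of all promoters of coding genes that overlap a window in blood at week 8, by number of CpG sites, which is 0.464% at 0 to 5 sites, 14.8% at 16 to 25 and 10.3% at 26 or more.

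Of 31 further Alzheimer genes, comprising App, the presenilins, Apoe and genes of other risk loci, 6 (19.4%) had a window in blood at week 8, against 19.5% of coding genes, with lower windows alone in a list where 88.9% were lower. That count is at the background. In blood, 2 of the further genes had a window at week 3 (6.45%, against 2.79% of coding genes) and 1 at week 24 (3.23%, against 1.25%). In hippocampus, 2 had one at week 3 (6.45%, against 2.60%), 1 at week 8 (3.23%, against 1.74%) and 0 at week 24, against 2.43%. The lower windows in blood at week 8 lay at Apoe, the lipid carrier with the strongest common risk allele in people, and at Ace, Ctsb, Mme, Tspoap1 and Wnt3. For Apoe the authors' deposited table lists -10.4 points (adjusted p = 0.0154), in a window that holds one of its annotated promoters. That window lay 1.31 kb from the nearer end of the gene body, so it was not counted as at a gene end. Ctsb, a lysosomal protease gene, was at -12.1 points (adjusted p = 0.000947) and Ace, a peptidase gene, at -10.8 points (adjusted p = 0.00216), both at their own gene end, in the authors' deposited table. Mme, which encodes the amyloid-degrading enzyme neprilysin, stood at -11.5 points (adjusted p = 0.0969), Tspoap1 at -18.8 points (adjusted p = 0.0934) and Wnt3 at -10.1 points (adjusted p = 0.00191) in the authors' deposited table. Sorl1, a sorting receptor for App, was at 10.6 points in blood at week 24 (adjusted p = 0.0340) in the authors' deposited table. For hippocampus the authors' deposited table gives 14.6 points at Jazf1 and -10.5 points at Nck2 at week 3, and 11.3 points at Hs3st5 at week 8. In blood at week 3 the authors' deposited table lists 14.7 points at Hs3st5 and -15.2 points at Plekha1.

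Of 49 markers of the cell types in these tissues, 9 (18.4%) had a window in blood at week 8, near the 19.5% of coding genes. They were 3 of 10 microglia markers (1 window shared by C1qa, C1qb and C1qc), 1 of 6 oligodendrocyte, 3 of 6 neuron, 1 of 5 B cell and 1 of 5 T cell markers, and 0 of 6 astrocyte, 0 of 6 neutrophil and monocyte and 0 of 5 erythroid markers. In blood at week 24, 1 of 6 neutrophil and monocyte markers and 1 of 6 oligodendrocyte markers had a higher window, and in blood at week 3, 1 of 10 microglia and 1 of 6 oligodendrocyte markers had a lower one. Hippocampus had a window at 2, 1 and 1 of 6 neuron markers at weeks 3, 8 and 24, at 1 of 5 erythroid markers at week 24, and at 0 of the markers of the other cell types. Over all 49 markers, blood gave 4.08% at week 3 and 4.08% at week 24, against 2.79% and 1.25% of coding genes. For hippocampus the shares at weeks 3, 8 and 24 were 4.08%, 2.04% and 4.08%, against 2.60%, 1.74% and 2.43%. The part of cell composition in the windows at risk genes was not tested.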

How the data were processed

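Whole-genome bisulfite libraries, 120 in all, were grouped by tissue, genotype and week from their titles. The build was mm10 and the tools methylKit, Bismark, Trim Galore and FastQC, per the submitters' processing notes. Neither a version nor the coverage filter, statistic or adjustment method was given in the sources used here. All p-values and adjusted p-values are the authors' own, as deposited, per 1 kb window, and the difference deposited beside them is in percentage points. Every deposited window has an adjusted p under 0.1 and a difference of at least 10 points, so the list holds called windows alone, and depth is unknown.

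From these, windows were assigned to genes on GRCm38.p6, whose chromosomes share mm10 coordinates, with Python 3.11.15 and pandas 2.3.3; the assignment was tested on simulated windows. Of the 8961 windows, 9 on unplaced scaffolds were left out of it. Promoter records were found for 28 of 42 genes; for the others only coordinate ends are given. Nothing was tested beyond the authors' values. Every risk gene with a window, and every further Alzheimer gene with one, was named; marker lists were counted. The members and lists were chosen with earlier results of these data known. The length and CpG groupings, the 50 kb limit, the profile around starts, the 4 promoters shown and the choice of lower windows for the share at own gene ends were made after the windows were seen. Alternatives changed the adjusted p, size, distance, gene-end width or joined neighbouring windows.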

Additional observations from a re-analysis of the deposited data

How the results depend on the processing

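Of the 28 alternatives, 15 kept the number of genes or windows within 1.5 times, and 13 did not. Several of the 15 could not have moved and say nothing about stability. Hippocampus at week 3 had 0 genes before any stricter rule. Outside blood at week 8, no window at a risk gene lay at a gene end to leave out. With windows of an adjusted p under 0.01, 8 risk genes remained in blood at week 8, 1 in blood at week 24, and 0 in hippocampus at weeks 8 and 24. Among windows of at least 15 points, 1 gene remained in blood at week 24 (Cd2ap), and 0 in blood at weeks 3 and 8 and in hippocampus at weeks 8 and 24. The count of risk genes with a window at their own end in blood at week 8 was then 0 as well. Counting windows that overlap the gene body alone left 2 genes in blood at week 24 and 0 in blood at week 3. Leaving out windows at coding gene ends left 5 genes in blood at week 8 (11.9%), against 6.66% of coding genes. For the limits on adjusted p and size, and for gene bodies alone, the share of coding genes was not recounted. Those counts therefore have no background beside them. Widening gene ends to 2 kb and joining windows less than 10 kb apart moved no count past 1.5 times. Just outside the rule, between 10 and 20 kb, lay 4 windows, and the authors' deposited table gives -11.3 points 12.9 kb from Mapt and 10.4 points 14.9 kb from Cd2ap in blood at week 24, and -12.8 points 15.9 kb from Ptk2b and -10.7 points 18.7 kb from Adamts4 in blood at week 8. No paired analysis was possible because the deposited list holds one value per comparison and none per library, and for the same reason no library could be left out in turn.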
